A study of Mus musculus with 24 samples.

Results

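Heat shock genes encode chaperones, proteins that hold or refold other proteins when these lose their shape. The 10 members described here were chosen by name from the counts table, as the rows whose Entrez identifiers belong to mouse Hspa1a, Hspa1b, Hspa8, Hsph1, Dnajb1, Hspb1, Hsp90aa1, Hspd1, Hspe1 and Bag3. They are 10 of 24454 gene identifiers, and all 10 had enough counts to be among the 16317 genes tested.

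RNA was measured in organs of Corti (OCs), the hearing epithelium of the cochlea, dissected from C57BL/6N mouse pups of both sexes at postnatal day 5. All explants were first kept for 24 h in medium and then cultured for a further 6 or 24 h in medium without drug (CTRL), in gentamicin at 50 μM (GM), in pioglitazone at 10 μM (PIO) or in the combination of these doses (PIO + GM). Gentamicin is an aminoglycoside antibiotic that damages hair cells, and pioglitazone activates PPAR-γ, a nuclear receptor. There were 24 libraries, 3 to a group in 8 groups, and every one was made from 6 pooled OCs, so that values for single animals cannot be given. The labels number the replicates without saying whether they were separate preparations, and the p-values therefore measure the spread between these libraries. Whole OCs hold hair cells, supporting cells and other cells, and in such bulk samples fewer cells of a type and less RNA per cell cannot be told apart.

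The heat shock response is governed mainly by heat shock factor 1 (Hsf1), a transcription factor that is held inactive by chaperones and is released when unfolded proteins occupy them. Active Hsf1 binds heat shock elements, inverted repeats of a short unit in the promoters of chaperone genes, and transcription of the inducible members can rise steeply within minutes. In the inner ear, inducible Hsp70 is known as a protein that protects hair cells against aminoglycosides and that supporting cells can supply.

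Promoter sequences were taken from RefSeq on build GRCm38.p6, as windows of 250 bases before and 50 bases from the annotated start of transcription, and they were found for 8 of the 10 members in 11 windows. They were searched on both strands for pairs of facing heat shock units, GAANNTTC or TTCNNGAA, and for runs of 3 units, GAANNTTCNNGAA or TTCNNGAANNTTC, each of which contains overlapping pairs. Of all 32851 windows of this length, 15.1% held at least 1 pair and 0.603% a run of 3. A pair was present in 7 of the 8 members with a window, and a run of 3 in 3 of them. By window, 8 of the 11 held a pair and 4 a run of 3. These windows are not independent, since those of Hspa1a and Hspa1b are nearly alike and Hspd1 and Hspe1 share their run. Such matches describe the letters and are not evidence of binding. One stretch is shown for each gene with a match, that with the most units or else nearest to the start, because these are the letters Hsf1 is known to bind, written 5′ to 3′ on the strand of the gene with the matched letters in capitals.
Hspa1a (chr17:34972247-34972266, minus strand): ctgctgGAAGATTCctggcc
Hspa1b (chr17:34959329-34959348, minus strand): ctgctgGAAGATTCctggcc
Hsph1 (chr5:149636282-149636306, minus strand): tgcagaTTCTGGAAAGTTCtcctca
Hspb1 (chr5:135887816-135887835, plus strand): ggggcaGAACCTTCctggcc
Hspd1 (chr1:55088053-55088082, minus strand): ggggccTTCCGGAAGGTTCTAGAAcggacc
Hspe1 (chr1:55088053-55088082, plus strand): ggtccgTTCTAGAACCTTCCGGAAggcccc
Bag3 (chr7:128523619-128523632, plus strand): ggaccaGAAGTTTC

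Counted from 0 at the annotated start, the pair in Hspa1a and in Hspa1b lay at -104 to -97, and those in Hspb1 at -117 to -110 and -97 to -90. Hspd1 and Hspe1 are transcribed from opposite strands, and the same 30 bases served both genes, with 4 units in a row at -144 to -127 for the first start of Hspd1 and at -89 to -72 for Hspe1. In Hsph1, the run of 3 lay behind the first start, at 15 to 27, and another pair lay at -54 to -47. The match in Bag3 was at 42 to 49. Both windows of Dnajb1 and the window at the second start of Hspd1 held neither motif, which says only that these letters are not in those windows.

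**Figure D1:**
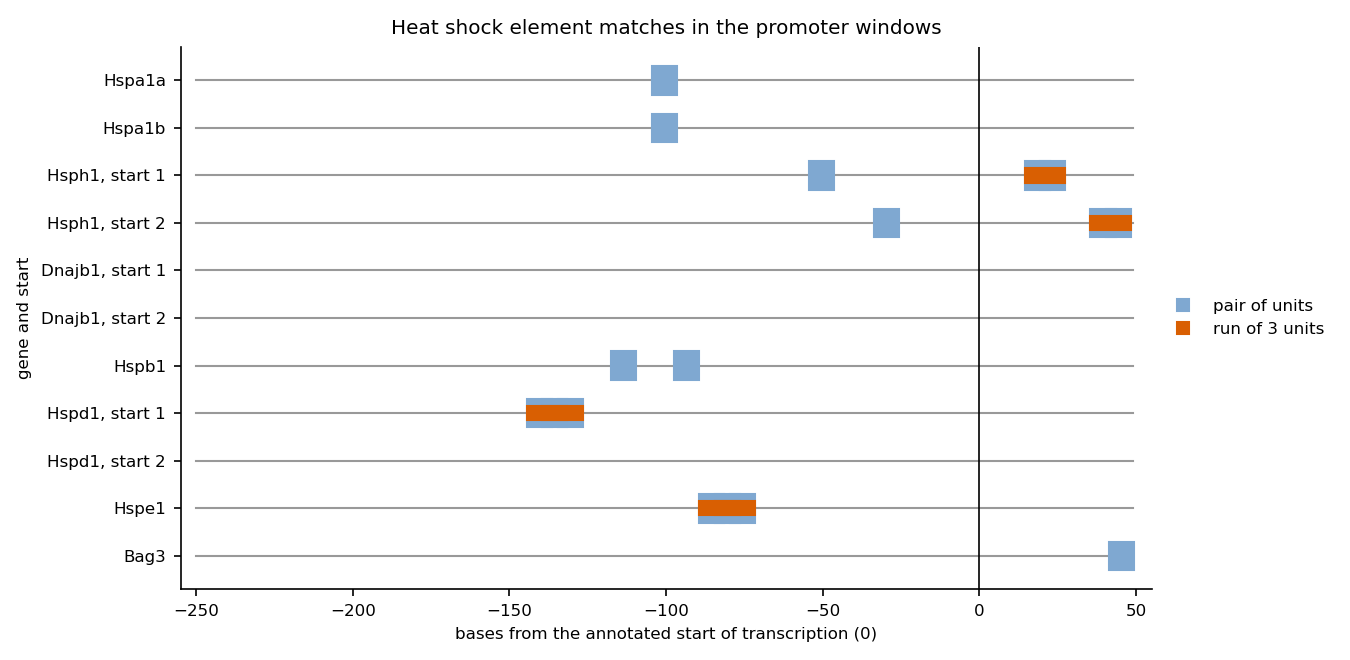
Positions of heat shock element matches in the promoter windows of 8 heat shock genes, in bases from the annotated start of transcription at 0, with 1 line per start. Blue blocks are pairs of facing units and orange blocks runs of 3 units, which occur in Hsph1, Hspd1 and Hspe1 only, and the lines of Dnajb1 are empty.

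Hspa1a and Hspa1b lie next to each other on the minus strand of chromosome 17, at 34969359 to 34972156 and at 34956429 to 34959238, with 10120 bases between them. The 250 bases before their starts are shown because their near identity bears on how the pair can be measured, with the differing bases in capitals.
Hspa1a (chr17:34972157-34972406, minus strand): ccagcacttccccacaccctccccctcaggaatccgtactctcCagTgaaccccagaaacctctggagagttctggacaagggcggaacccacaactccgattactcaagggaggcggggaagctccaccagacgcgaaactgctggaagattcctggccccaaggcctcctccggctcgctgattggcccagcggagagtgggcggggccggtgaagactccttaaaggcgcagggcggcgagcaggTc
Hspa1b (chr17:34959239-34959488, minus strand): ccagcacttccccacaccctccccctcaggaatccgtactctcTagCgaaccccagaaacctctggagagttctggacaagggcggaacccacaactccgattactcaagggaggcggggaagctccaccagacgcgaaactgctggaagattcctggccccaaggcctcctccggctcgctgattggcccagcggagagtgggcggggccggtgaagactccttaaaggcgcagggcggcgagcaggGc

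Of these 250 bases 3 differ, and of the whole windows of 300 bases 4 differ, an identity of 98.7%. Reads were 76 bases long, and 61.5% of the 76-base windows in the transcript of Hspa1a and 55.6% of those in Hspa1b also occur in transcripts of other genes, most of them in the other copy. How reads with several matches were treated is not stated, so the split between the copies is uncertain and their sum was analysed beside them. Hspa1a took between 27.1% and 36.5% of the counts of the pair in the 24 libraries, with a median of 33.5%.

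Reads of other members could also be shared, mostly with pseudogenes. The share of 76-base windows found elsewhere was 78.8% for Hspa8, 59.2% for Hsp90aa1, 57.6% for Hspb1, 33.3% for Hspd1 and 28.8% for Hspe1, and the levels of these genes are uncertain to that extent. The spans of Hspd1 and Hspe1 on chromosome 1 overlap by 96 bases, and whether the counting used the strand is not stated. Hsph1, Dnajb1 and Bag3 shared 0% of their windows, and their counts do not meet this limit.

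Library totals ranged from 7211357 to 15548856 counts on genes, so that 3 counts corresponded to 0.193 to 0.416 CPM (counts in a library scaled to 1000000), a limit that covers counting error only. The fewest counts of any member in a library were 67, for Hspb1. Hair cell and supporting cell markers were present in each library, with summed levels of 504 to 1007 and 4092 to 10944 CPM, and 0 of the markers were without counts in any library. In 3 libraries, replicate 2 of PIO at 6 h and replicates 2 and 3 of PIO + GM at 6 h, log2 levels fell by between 0.44 and 0.62 for each 10 percentage points of GC content of the transcript, whereas the slopes of the other 21 libraries lay between -0.06 and 0.30. Differences with pioglitazone that rest on these 3 libraries are given with and without them, a comparison that was added after the data were seen. Without them PIO at 6 h keeps 2 libraries and PIO + GM at 6 h 1, whose spread is then taken from the other groups.

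Levels of different genes were compared per length, as RPKM, which divides CPM by the length of the gene in kilobases. Averaged over the 24 libraries, Hspa8, the constitutive Hsp70 of the cytosol, was the most abundant member at 453 ± 125 RPKM (SD, n = 24), followed by Hsp90aa1, the inducible form of Hsp90, at 141 ± 80.4 RPKM. The mitochondrial chaperonin Hspd1 (Hsp60) stood at 66.2 ± 30.7 RPKM and its partner Hspe1 (Hsp10) at 55.6 ± 20.7 RPKM. Hsph1, an Hsp110 protein that exchanges the nucleotide of Hsp70, followed at 41.1 ± 19.5 RPKM. The inducible pair had 22.1 ± 15.5 RPKM for Hspa1b and 11.0 ± 7.63 RPKM for Hspa1a. Dnajb1, the Hsp40 protein that stimulates the ATPase of Hsp70, had 16.2 ± 3.47 RPKM. Bag3, which exchanges the nucleotide of Hsp70 and joins it to small heat shock proteins, had 16.1 ± 4.51 RPKM, and the small heat shock protein Hspb1 had 12.0 ± 5.69 RPKM. These SDs span all 8 groups and thus include the differences between times described next.

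**Figure D2:**
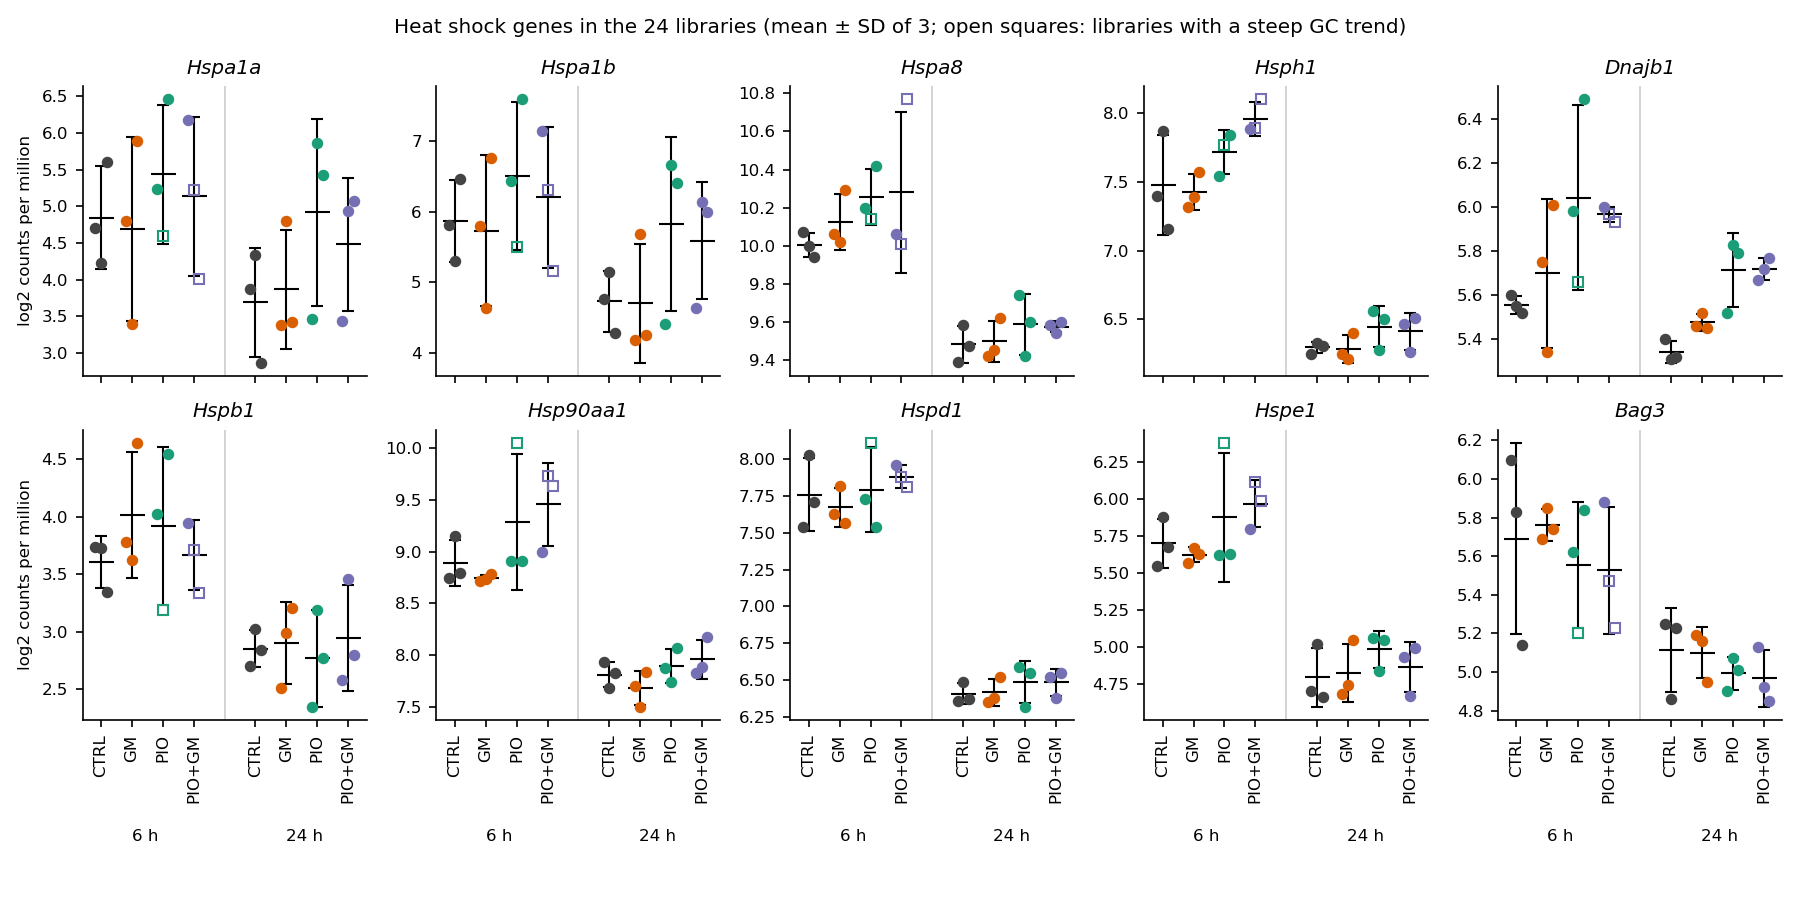
Level of each heat shock gene in log2 CPM (vertical axis, a separate scale for each gene) in the 4 treatments at 6 h and at 24 h (horizontal axis), with points for libraries and bars for the mean ± SD of 3. Open squares mark the 3 libraries with a steep GC trend, and for Hspa8, Hsph1, Hsp90aa1, Hspd1 and Hspe1 all 12 points at 24 h lie below all 12 at 6 h.

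All 10 heat shock genes were lower after 24 h than after 6 h of culture. Averaged over the 4 treatments, the log2 fold changes ranged from -1.34 to -0.27 with a median of -0.92, beside a median of 0.02 over all genes tested. With edgeR's quasi-likelihood test, 10 of 10 members were called lower at an adjusted p under 0.05, where 30.7% of the genes tested were called lower and 31.9% higher. For 5 members, all 12 libraries at 24 h lay below all 12 at 6 h, which was the case for 6.37% of the genes tested. The call held for 10 members without the 3 libraries of steep GC slope, where 29.5% of all genes were called lower, and DESeq2 also called 10 (52.1% of the genes it tested, in either direction). Without a filter on low counts 9 were called, beside 25.5% of all genes called lower, and Hspa1a did not pass (adjusted p = 0.0526 by edgeR).

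Hspd1 and Hspe1, the chaperonin ring and its lid in mitochondria, were lower at 24 h in every treatment. At 6 h, Hspd1 had 187, 261 and 209 CPM in CTRL, 198, 226 and 190.2 in GM, 212, 277 and 186 in PIO, and 249, 235 and 225 in PIO + GM. At 24 h the values were 82.2, 89.6 and 82.7 CPM for Hspd1 in CTRL, 81.5, 83.3 and 91.5 in GM, 96.1, 79.7 and 93.9 in PIO, and 91.4, 82.9 and 93.6 in PIO + GM. The range at 24 h, of 79.7 to 96.1 CPM, lay below that at 6 h, of 186 to 277 CPM, and Hspd1 had the smallest spread of the members within groups, with an SD of 0.16 on the log2 scale. Averaged over treatments, Hspd1 was 2.53-fold lower at 24 h (edgeR log2 fold change -1.34 with SE 0.07, adjusted p = 1.89e-11). Hspe1 ranged from 46.8 to 83.1 CPM at 6 h and from 25.1 to 33.2 CPM at 24 h without overlap, and was 1.92-fold lower (edgeR log2 fold change -0.94 with SE 0.09, adjusted p = 3.35e-08).

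Hsp90aa1 had 428, 569.8 and 441 CPM in CTRL at 6 h, 420.4, 424 and 441 in GM, 482, 1057 and 482 in PIO, and 513, 846 and 799.7 in PIO + GM. The 3 highest of these 12 values belonged to the 3 libraries of steep GC slope. At 24 h, Hsp90aa1 had 245, 204 and 225 CPM in CTRL, 208, 181 and 228 in GM, 233, 213 and 268 in PIO, and 225, 236 and 288 in PIO + GM, so that each library was below each library at 6 h. Averaged over treatments the gene was 2.46-fold lower at 24 h (edgeR log2 fold change -1.30 with SE 0.12, adjusted p = 2.78e-08), and in CTRL and GM, which held none of the 3 libraries, it was 2.14-fold and 2.09-fold lower (adjusted p = 0.00228 and 0.00327).

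Hsph1 ranged from 143 to 275 CPM at 6 h, with a median of 204, and from 73.8 to 94.5 CPM at 24 h, with a median of 79.7. The ranges were far apart, and Hsph1 was 2.45-fold lower at 24 h (edgeR log2 fold change -1.29 with SE 0.07, adjusted p = 5.22e-11). Hspa8, whose nucleotide Hsph1 exchanges, had 979 to 1745 CPM in the 12 libraries at 6 h with a median of 1072. At 24 h Hspa8 had 669 to 853 CPM with a median of 755, again without overlap, and was 1.56-fold lower (edgeR log2 fold change -0.64 with SE 0.08, adjusted p = 7.73e-07).

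The inducible pair was lower at 24 h on average, but its libraries overlapped widely. The sum of Hspa1a and Hspa1b was 82.2, 58.0 and 137 CPM in CTRL at 6 h, 83.1, 35.0 and 168 in GM, 125, 69.0 and 282 in PIO, and 214, 116 and 51.5 in PIO + GM. At 24 h the sum was 41.4, 55.2 and 26.4 CPM in CTRL, 28.3, 79.0 and 29.5 in GM, 32.0, 159 and 128 in PIO, and 35.5, 101 and 97.0 in PIO + GM. Replicates of 1 group thus differed more than the means of the 2 times, and 4 of the 12 libraries at 24 h lay below the lowest at 6 h. Averaged over treatments, the log2 fold change was -0.88 for the sum of Hspa1a and Hspa1b (SE 0.34, adjusted p = 0.0278 by edgeR), -0.83 for Hspa1a (SE 0.35, adjusted p = 0.0453) and -0.91 for Hspa1b (SE 0.33, adjusted p = 0.0215). In the fits with 1 library left out that lost Hspa1a, its log2 fold change was -0.86 to -0.64. That call was lost without any 1 of 14 libraries, with adjusted p-values by edgeR from 0.0521 to 0.117. These were replicates 1 and 3 of CTRL, of GM at 6 h and at 24 h, replicates 1 and 2 of PIO + GM at 6 h, replicate 3 of PIO at 6 h, replicates 1 and 3 of PIO at 24 h and replicate 1 of PIO + GM at 24 h. The call for Hspa1b was lost without replicate 3 of GM, replicate 3 of PIO or replicate 1 of PIO + GM at 6 h (adjusted p = 0.0545, 0.0550 and 0.0510 by edgeR). Its log2 fold change was then -0.74, -0.72 and -0.76.

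Hspb1 had 13.2, 13.1 and 10.1 CPM in CTRL at 6 h, 13.6, 12.1 and 24.8 in GM, 16.1, 9.00 and 23.3 in PIO, and 15.2, 12.9 and 10.0 in PIO + GM. At 24 h Hspb1 ranged from 4.95 to 10.8 CPM, with 10 of the 12 libraries below the lowest at 6 h, and it was 1.96-fold lower (edgeR log2 fold change -0.97 with SE 0.17, adjusted p = 4.92e-05). Bag3 had 35.1 to 68.4 CPM at 6 h and 28.6 to 38.0 CPM at 24 h, with 8 libraries below the lowest at 6 h, and was 1.53-fold lower (edgeR log2 fold change -0.62 with SE 0.10, adjusted p = 3.86e-05). Dnajb1 changed least, from 40.4 to 89.6 CPM at 6 h to 39.5 to 56.7 CPM at 24 h, with overlap in all but 2 of the 24 h libraries, and was 1.21-fold lower (edgeR log2 fold change -0.27 with SE 0.08, adjusted p = 0.00786).

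Within single treatments, the log2 fold change between 24 h and 6 h was negative for 10 of 10 members in each of the 4. In CTRL 6 members were called lower (13.2% of all genes), in GM 7 (11.7%), in PIO 7 (15.8%) and in PIO + GM 6 (17%). Hspa8, Hsph1, Hsp90aa1, Hspd1, Hspe1 and Bag3 passed in each treatment, and Hspb1 in GM and PIO (adjusted p = 0.0147 and 0.0102 by edgeR). Several of these calls were lost with 1 library left out, although the log2 fold changes stayed negative. In the fits that lost Bag3 its log2 fold change was -0.70 to -0.38, beside -0.66 to -0.59 in the fit to all libraries. The call of Bag3 was lost in 17 of the 24 fits that left out 1 library (adjusted p = 0.0503 to 0.185 by edgeR). The 7 fits in which it held were those without replicate 3 at 6 h or 1 at 24 h of CTRL, replicate 1 or 3 of GM at 6 h, replicate 2 of PIO at 6 h, and replicate 3 at 6 h or 1 at 24 h of PIO + GM. The call of Hspa8 in CTRL was lost without replicate 1 at 6 h or replicate 1 or 3 at 24 h (adjusted p = 0.0536, 0.0671 and 0.0515 by edgeR). Its log2 fold change was then -0.48, -0.47 and -0.51, beside -0.52 in the fit to all libraries. In PIO + GM Hspa8 moved from -0.75 to -0.46 on the log2 scale without replicate 3 at 6 h. That of Hspb1 was lost in GM without replicate 3 at 6 h or 1 at 24 h (adjusted p = 0.104 and 0.0724 by edgeR) and in PIO without the same numbers (0.0568 and 0.0562). Fits to the 6 libraries of a treatment alone also lost Bag3 in CTRL, PIO and PIO + GM (adjusted p = 0.0932, 0.0788 and 0.0513 by edgeR) and Hspb1 in PIO (0.0728), and called Hspb1 in CTRL (0.0222). Without a filter Bag3 was lost in PIO and PIO + GM (adjusted p = 0.0733 and 0.0637 by edgeR). With the GC trend removed Hspb1 was also called in CTRL (-0.84, adjusted p = 0.0135 by edgeR) and PIO + GM (-1.15 in place of -0.71, adjusted p = 0.00159), and Dnajb1 in PIO (-0.41, adjusted p = 0.0378). Dnajb1 in PIO was also called without the 3 libraries of steep GC slope (-0.53, adjusted p = 0.0253 by edgeR). In the fit to all libraries Hspa1a, Hspa1b and Dnajb1 passed in none, with values between -1.18 and -0.21 on the log2 scale. Whether the change with time depended on a drug was tested as an interaction, and by edgeR 0 members passed for pioglitazone and 0 for gentamicin, where 0.00613% and 0% of all genes were called. At an unadjusted p under 0.05 there were 0 of 10 in either, beside 10.1% and 1.63% of all genes, and DESeq2 called 0 (0.204% and 0.0492% of the genes it tested). For Hsp90aa1, the difference between the effects of pioglitazone at 24 h and at 6 h was -0.44 on the log2 scale (95% confidence interval -0.93 to 0.06, adjusted p = 0.483), and for Hsph1 it was -0.23 (-0.52 to 0.07, adjusted p = 0.498). With the 3 libraries of steep GC slope left out it was 0.05 for Hsp90aa1 and -0.17 for Hsph1 (SE 0.14 and 0.16), and the members called lower numbered 8 in PIO, beside 11.2% of all genes, and 6 in PIO + GM, beside 13.2%.

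**Figure D3:**
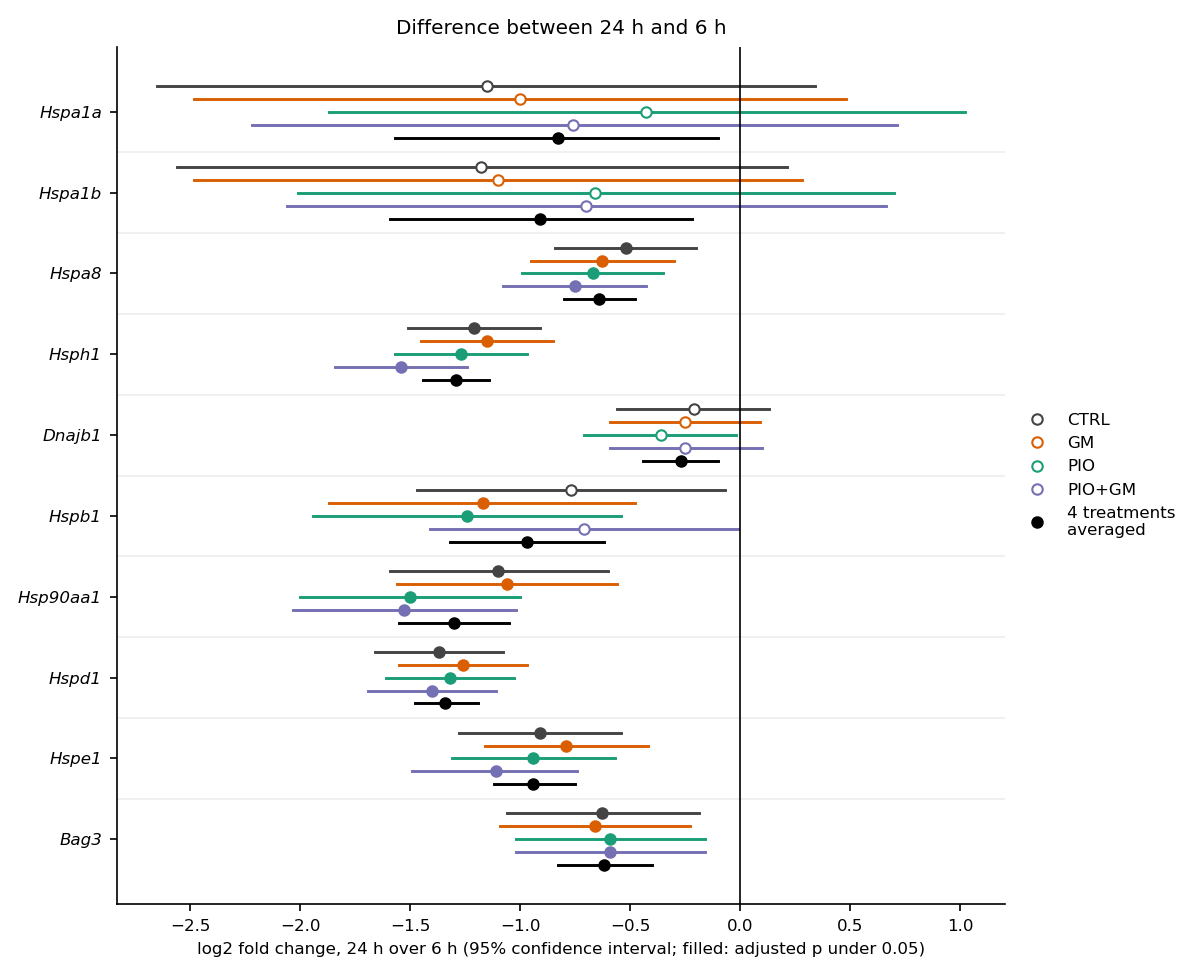
Log2 fold change of each heat shock gene between 24 h and 6 h of culture (horizontal axis) in each treatment and averaged over the 4, with 95% confidence intervals and filled points for an adjusted p under 0.05. All points lie below 0, the averaged values range from -1.34 for Hspd1 to -0.27 for Dnajb1, and the intervals of Hspa1a and Hspa1b are the widest.

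Markers of other cells were also called between the times, where 30.7% of all genes were called lower and 31.9% higher. Of the marker genes listed for them, 4 of 6 Schwann cell genes, 5 of 6 neuron genes, 5 of 5 red blood cell genes and 4 of 8 immediate early genes were called lower at 24 h by edgeR, and 5 of 9 macrophage genes, 4 of 11 supporting cell genes and 5 of 12 hair cell genes were called higher, beside 2 hair cell genes called lower. Mesenchyme had 2 of 6 genes higher and 1 lower. Summed Schwann cell markers ranged from 363 to 2602 CPM at 6 h and from 337 to 854 CPM at 24 h, neuron markers from 57.1 to 371 and from 30.4 to 206, and red blood cell markers from 178 to 654 and from 77.5 to 241. The part of these shifts in the lower heat shock genes was not tested. Because no library was taken before culture began, the data do not say which time was nearer to the level in fresh tissue.

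Other genes of the pathway, from a list of 62 heat shock factors, chaperones and co-chaperones of which 59 were tested, were mostly lower at 24 h. Averaged over treatments, 37 were called lower and 6 higher, beside 30.7% and 31.9% of all genes, with a median log2 fold change of -0.34. The chaperonin of the cytosol was lower in 8 of 8 subunits tested, with a median of -0.72, and Hsp90 with its co-chaperones in 10 of 12. The lower genes with the smallest p-values were Hspa9, the Hsp70 of mitochondria (log2 fold change -1.72, SE 0.08), Stip1, which links Hsp70 to Hsp90 (-0.75, SE 0.04), and the chaperonin subunits Cct6a (-1.04, SE 0.06) and Cct3 (-0.90, SE 0.06). The higher genes were led by Cirbp, an RNA-binding protein induced by cold (0.79, SE 0.08), the small heat shock protein Hspb2 (1.09, SE 0.16), Hspa12b (0.72, SE 0.17) and Hspb11 (0.46, SE 0.13). Within single treatments, 26 to 30 of the 59 were called lower, beside 11.7% to 17% of all genes, and 2 or 3 higher, beside 12.5% to 17.6%. Hsf1 itself was slightly lower (edgeR log2 fold change -0.31 with SE 0.11, adjusted p = 0.0231), with 19.1 to 44.1 CPM in the 12 libraries at 6 h and 20.4 to 34.1 at 24 h. Its lowest value at 6 h came from replicate 3 of PIO + GM, a library of steep GC slope, and without the 3 such libraries the log2 fold change of Hsf1 was -0.49 (adjusted p = 8.51e-05 by edgeR).

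With gentamicin no heat shock gene passed the test. At 6 h, Hspa1b had 56.2, 39.5 and 88.6 CPM in CTRL and 55.4, 24.6 and 109 in GM, and at 24 h 26.9, 35.3 and 19.3 CPM in CTRL and 18.0, 51.3 and 19.0 in GM, with the groups overlapping at both times. Averaged over both times and over pioglitazone, log2 fold changes with gentamicin lay between -0.14 and 0.10 with a median of -0.01, the same as over all genes. By edgeR 0 of 10 members passed, where 0.276% of all genes did, 0 had an unadjusted p under 0.05 (3.66% of all genes), and DESeq2 called 0 (0.578% of the genes it tested). The same counts of 0 held for GM against CTRL at 6 h, where 0% of all genes were called and 1.49% had an unadjusted p under 0.05, and at 24 h (0.0123% and 1.67%). They also held for PIO + GM against PIO at 6 h (0% and 3.06%) and at 24 h (0.0735% and 2.59%). Of the genes it tested, DESeq2 called 0% at 6 h and 0.0515% at 24 h for GM against CTRL. For PIO + GM against PIO it called 0% and 0.164%. How much of a change these data could have missed differs between members. For Hspd1 the 95% confidence interval of the averaged log2 fold change was -0.15 to 0.14, for Hsph1 -0.12 to 0.18, for Hsp90aa1 -0.28 to 0.21 and for Hspb1 -0.25 to 0.45, whereas for Hspa1a it was -0.87 to 0.60, so that a difference of that size was not detectable for that gene.

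With pioglitazone, Dnajb1, Hsph1 and Hsp90aa1 were higher. Averaged over both times and over gentamicin, 9 of 10 members had a positive log2 fold change, with a median of 0.23 beside -0.02 over all genes. By edgeR 3 members were called higher and 0 lower, where 10.3% of all genes were called higher and 10.2% lower, and DESeq2 called 4 (22.7% of the genes it tested, in either direction). Without the 3 libraries of steep GC slope, all of which contained pioglitazone, 2 members were called higher, Dnajb1 and Hspa1b, beside 6.06% of all genes called higher and 5.98% lower. With each library's GC trend removed 6 were called higher, beside 17.5% higher and 8.19% lower.

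Dnajb1 had 48.5, 46.7 and 45.6 CPM in CTRL at 6 h, 53.5, 40.4 and 64.4 in GM, 62.8, 50.4 and 89.6 in PIO, and 63.7, 62.4 and 60.7 in PIO + GM. At 24 h Dnajb1 had 41.9, 39.5 and 39.9 CPM in CTRL, 43.9, 45.7 and 43.4 in GM, 45.7, 56.7 and 55.3 in PIO, and 50.6, 52.5 and 54.3 in PIO + GM. At either time, each PIO and each PIO + GM library lay above each CTRL library, and at 24 h each PIO + GM library also lay above each GM library. Each GM library, without pioglitazone, likewise lay above each CTRL library at 24 h, with 43.4 to 45.7 against 39.5 to 41.9 CPM (log2 fold change 0.13, SE 0.16), as for 2.6% of all genes. Such a separation of 3 from 3 was found for 8.68% of all genes for PIO over CTRL at 6 h and 11.7% at 24 h, for 9.65% and 10.9% for PIO + GM over CTRL, and for 9.84% for PIO + GM over GM at 24 h. The averaged difference was 1.27-fold (edgeR log2 fold change 0.35 with SE 0.08, adjusted p = 0.00677), and 0.40 without the 3 libraries (adjusted p = 0.006).

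Hsph1 had 169, 233 and 143 CPM in CTRL at 6 h, 159.9, 168 and 189.5 in GM, 186, 217 and 229.7 in PIO, and 235, 237 and 275 in PIO + GM. At that time each PIO + GM library lay above each library of CTRL and of GM, a separation found for 9.65% and 11.6% of all genes. Replicates 2 and 3 of PIO + GM, at 237 and 275 CPM, are of steep GC slope, and replicate 1 had 235 CPM beside 233 in the second CTRL library. At 24 h Hsph1 had 73.8 to 84.3 CPM in the 6 libraries without pioglitazone and 76.5 to 94.5 in the 6 with it, which overlapped. The averaged difference was 1.20-fold (edgeR log2 fold change 0.26 with SE 0.07, adjusted p = 0.0154), and without the 3 libraries it was 0.23 and did not pass (adjusted p = 0.0716). Of the members, Hsp90aa1 had the lowest GC content, at 42.5%, and Hspb1 the highest, at 60.7%. For Hsp90aa1 the averaged difference was 1.32-fold (edgeR log2 fold change 0.40 with SE 0.12, adjusted p = 0.0228). It rested on the 3 libraries, since without them it was 0.16 and did not pass (adjusted p = 0.164), and with each library's GC trend removed it was 0.32 and passed (adjusted p = 0.00393).

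The largest averaged differences with pioglitazone were those of the inducible pair, and by edgeR's quasi-likelihood test without a replicate block they did not pass. The log2 fold change was 0.86 for Hspa1b (95% confidence interval 0.18 to 1.55, adjusted p = 0.0671) and 0.77 for Hspa1a (0.04 to 1.51, adjusted p = 0.126). At 24 h, Hspa1a had 14.5, 19.9 and 7.16 CPM in CTRL and 10.9, 58.0 and 42.7 in PIO, so that 2 of the 3 PIO libraries were above and 1 was within the range of CTRL. That comparison had the largest single difference, of 1.42 on the log2 scale for Hspa1a (SE 0.72, adjusted p = 0.531 by edgeR). With 1 library left out, that difference ran from 0.94, without replicate 2 of PIO, to 1.86, without replicate 1 of PIO. The averaged calls of the pair depended on the fit. With each library's GC trend removed both genes were called (adjusted p = 0.0267 for Hspa1a and 0.0116 for Hspa1b by edgeR). Hspa1b was also called by DESeq2 (adjusted p = 0.0497), by the likelihood ratio test (adjusted p = 0.0361 by edgeR) and without the 3 libraries (1.14 on the log2 scale, adjusted p = 0.0397 by edgeR). It was called as well without replicate 3 of GM or 2 of PIO at 6 h, or replicate 2 of GM or 1 of PIO at 24 h (adjusted p = 0.0394 to 0.046 by edgeR). Of the other members, Hspa8 differed by 0.16, Hspe1 by 0.20, Hspd1 by 0.10, Hspb1 by 0.01 and Bag3 by -0.16 on the log2 scale, none past the threshold (adjusted p from 0.119 to 0.981 by edgeR). Without the 3 libraries these values were 0.11, 0.08, 0.07, 0.14 and -0.04, and without replicate 2 of PIO at 6 h alone Hspe1 differed by 0.12. With the GC trend removed Hspe1 passed (0.29, adjusted p = 0.0328 by edgeR).

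In the single comparisons with pioglitazone 0 members passed by edgeR's quasi-likelihood test without a replicate block. For PIO against CTRL at 6 h, 0.337% of all genes passed, and at an unadjusted p under 0.05 there was 1 of 10 members beside 15.2% of all genes. At 24 h these values were 0.153%, 1 member and 9.93%. For PIO + GM against GM they were 1.32%, 2 members and 25% at 6 h, and 0.11%, 0 members and 7.47% at 24 h. For PIO + GM against CTRL they were 2.64%, 4 members and 23.6% at 6 h, and 0.478%, 1 member and 9.05% at 24 h. DESeq2 called 2 members for PIO + GM against GM at 6 h (9.22% of the genes it tested), 1 for PIO + GM against CTRL at 6 h (8.69%) and 0 in the others. Its shares in those others were 2.65% for PIO against CTRL at 6 h and 0.839% at 24 h. At 24 h they were 0.47% for PIO + GM against GM and 1.48% for PIO + GM against CTRL. The smallest adjusted p-values by edgeR were those of Hsph1 for PIO + GM at 6 h, against GM (log2 fold change 0.53, SE 0.14, adjusted p = 0.0625) and against CTRL (0.45, SE 0.14, adjusted p = 0.0815). The next was that of Hsp90aa1 for PIO + GM against GM at 6 h (0.75, SE 0.24, adjusted p = 0.086). Without the 3 libraries of steep GC slope, Hsph1 differed by 0.44 against GM (SE 0.20, adjusted p = 0.758 by edgeR) and by 0.37 against CTRL (SE 0.20, adjusted p = 0.681), and Hsp90aa1 by 0.25 against GM (SE 0.18, adjusted p = 0.862). The members at an unadjusted p under 0.05 were then 1 of 10 against GM and 1 against CTRL, beside 6.34% and 8.01% of all genes. For PIO against CTRL at 6 h the smallest was that of Dnajb1 (0.53, SE 0.16, adjusted p = 0.144), which passed without the 3 libraries (0.70, SE 0.16, adjusted p = 0.0462), where 1.07% of all genes did, and was 0.27 without replicate 3 of PIO (adjusted p = 0.29). These comparisons share libraries with each other and with the averages, and they are not separate evidence. Departures of the 2 drugs together from the sum of their effects passed for 0 of 10 members by edgeR at 6 h and at 24 h (0% of all genes at either time). At an unadjusted p under 0.05 there were 0 of 10, beside 1.8% of all genes at 6 h and 1.21% at 24 h, and DESeq2 called 0 (0% of the genes it tested at either time). The 95% confidence intervals of these interactions lay between -2.90 and 1.72 on the log2 scale, so that large departures were not detectable for every member.

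**Figure D4:**
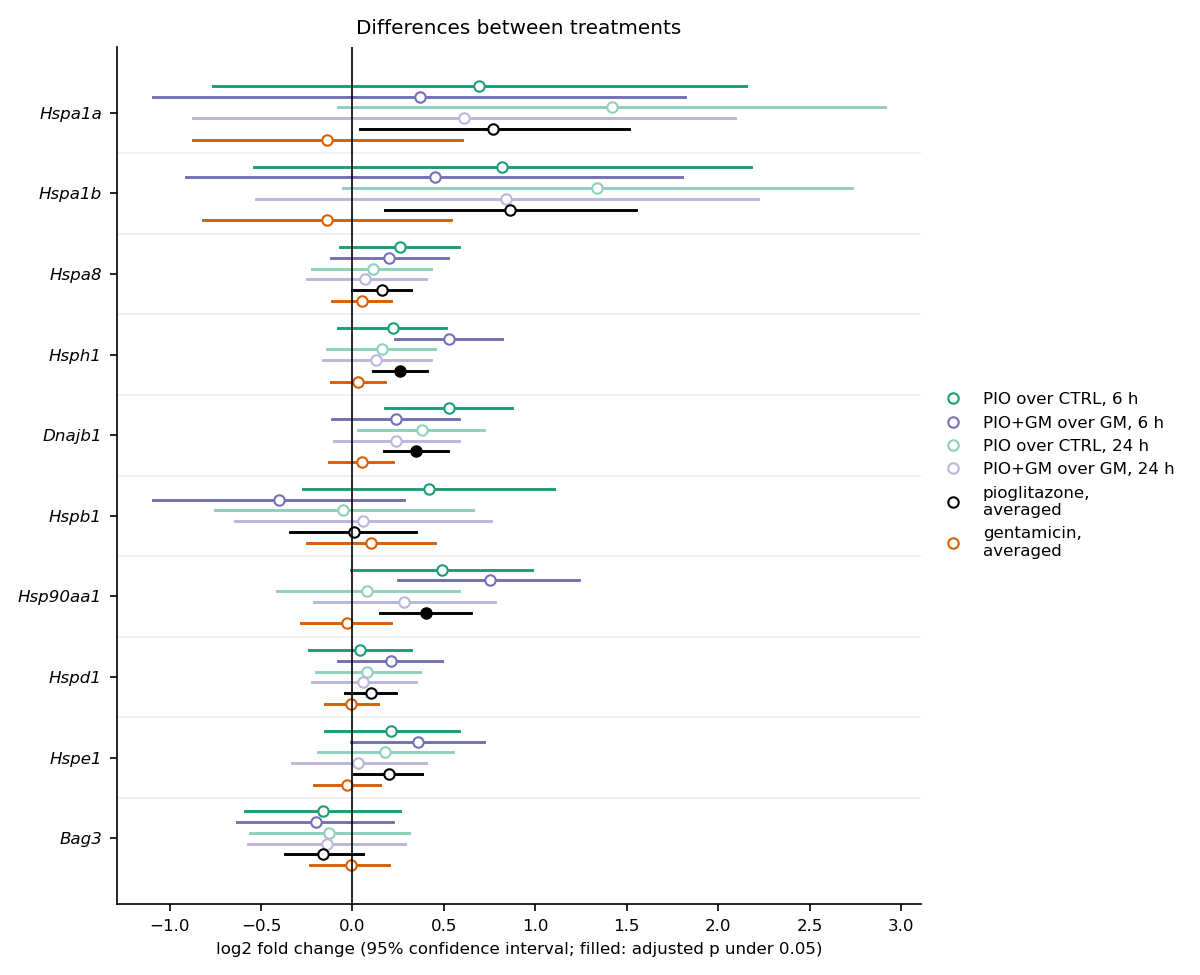
Log2 fold change of each heat shock gene (horizontal axis) for pioglitazone with and without gentamicin at each time, and for pioglitazone and gentamicin averaged over the other factors, with 95% confidence intervals. Filled points, at an adjusted p under 0.05, are found for the pioglitazone average of Hsph1 (0.26), Dnajb1 (0.35) and Hsp90aa1 (0.40), while the gentamicin averages lie between -0.14 and 0.10.

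Of the 59 other pathway genes, 12 were called higher and 5 lower with pioglitazone on average by edgeR, beside 10.3% and 10.2% of all genes, with a median of 0.05. Without the 3 libraries of steep GC slope 7 were called higher and 1 lower, of 61 tested, beside 6.06% and 5.98% of all genes. Those called higher with the smallest p-values were Stip1 (log2 fold change 0.26, SE 0.04), the heat shock factor Hsf2 (0.41, SE 0.08), Hspa14 (0.28, SE 0.06) and the chaperonin subunit Cct2 (0.17, SE 0.04). Among those called lower were the small heat shock proteins Hspb6 (-0.39, SE 0.10), Hspb2 (-0.58, SE 0.16) and Cryab (-0.33, SE 0.10), and Serpinh1, the collagen chaperone of the endoplasmic reticulum (-0.42, SE 0.13). Without the 3 libraries Stip1, Hsf2, Hspa14, Cct2 and Hspb6 still passed, and Hspb2, Cryab and Serpinh1 did not (adjusted p = 0.0872, 0.0683 and 0.171 by edgeR). Hsf1 did not pass (-0.06, SE 0.11, adjusted p = 0.763). With gentamicin on average 0 of the 59 were called. In single comparisons of treatments, 1 was called, Hsf2 for PIO + GM against CTRL at 6 h (0.59, SE 0.15, adjusted p = 0.0436 by edgeR), where 2.64% of all genes were called. Without the 3 libraries Hsf2 did not pass there (0.39, SE 0.18, adjusted p = 0.596). Of the cell markers, 4 of 12 hair cell genes and 2 of 6 mesenchyme genes were called lower with pioglitazone, beside 10.2% of all genes, and 0 of the other lists' genes in either direction. These counts were 3 and 2 without the 3 libraries. The part of these markers in the pioglitazone differences of the heat shock genes was not tested.

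Replicates of the same group differed most for the inducible pair. The SD within groups was 0.99 on the log2 scale for Hspa1a and 0.92 for Hspa1b, larger than for 98.5% and 97.8% of all genes tested, whose median was 0.28. Across the 12 libraries at 6 h, Hspa1a varied 8.47-fold and Hspa1b 7.88-fold, against 1.49-fold for Hspd1. The other members had SDs between 0.16 and 0.43. At 6 h the pair was highest in replicate 3 of CTRL, GM and PIO and lowest in replicate 3 of PIO + GM, a library of steep GC slope. At 24 h it was highest in replicate 2 of CTRL, GM, PIO and PIO + GM. These libraries had the lowest summed supporting cell markers of their groups (7439.7, 5836, 4993 and 4875 CPM) and the highest macrophage markers (143, 211, 199 and 196 CPM). At 6 h the library highest in the pair had the lowest supporting cell markers in GM, PIO and PIO + GM (4603, 5600.2 and 4274 CPM). In CTRL at 6 h it had the highest (10944 CPM). The part of cell content in the spread of the pair was not tested. Counts were 82 to 1213 for Hspa1a and 218 to 2679 for Hspa1b in a library, so the differences of the pair between replicates were larger than counting error. The transcripts of Hspa1a and Hspa1b had a GC content of 58.9% and 58.1%. Their highest library also had the highest GC slope of its group in GM, PIO and PIO + GM at 6 h (0.17, 0.16 and 0.01). The same held at 24 h in CTRL, GM and PIO (0.21, 0.30 and 0.28), but not in PIO + GM (0.07) or in CTRL at 6 h (0.05). The part of GC content in the spread of the pair was not tested.

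**Figure D5:**
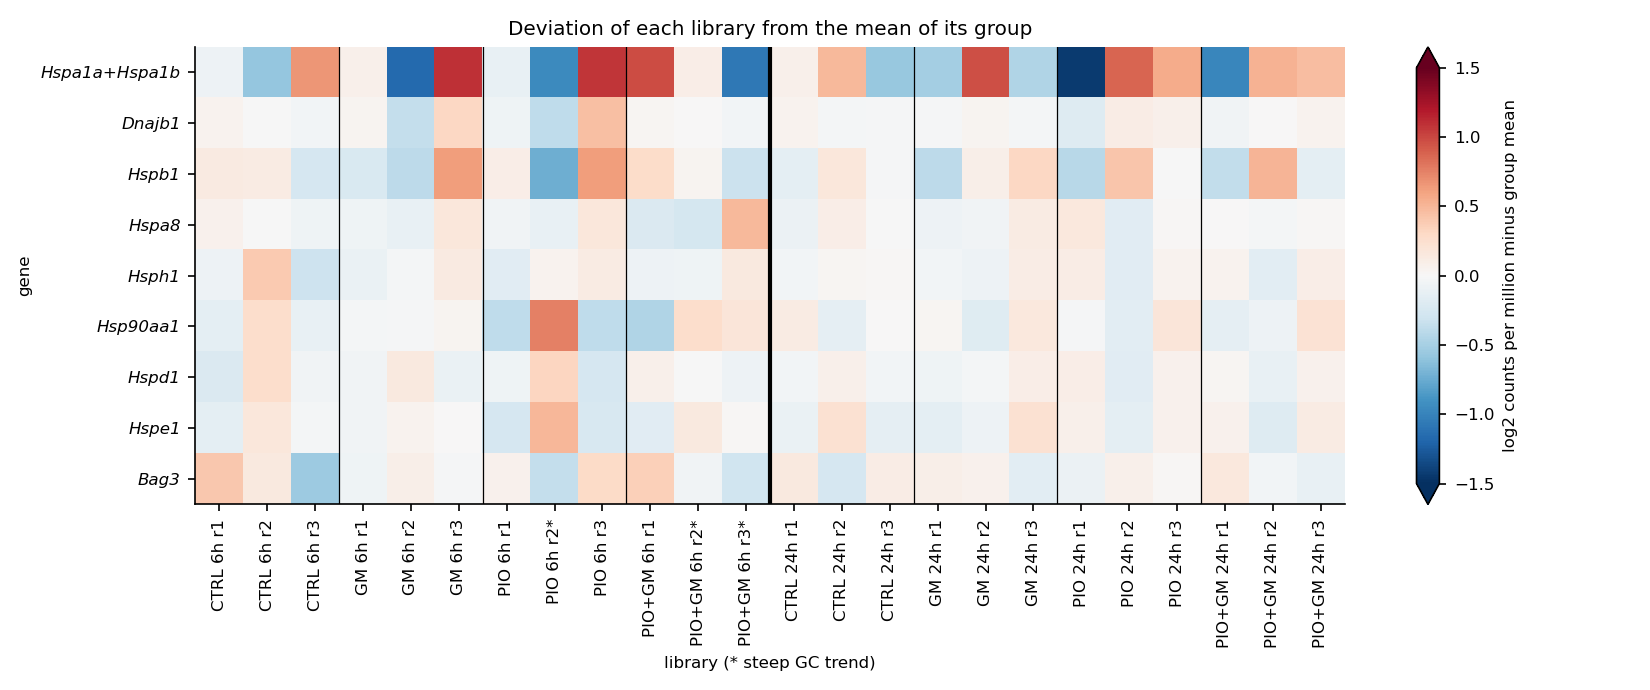
Deviation of each library (columns, grouped by time and treatment, with r1 to r3 for the replicates and asterisks for the 3 libraries of steep GC slope) from the mean of its group for the heat shock genes (rows), as a difference in log2 CPM. The row of Hspa1a and Hspa1b has the strongest colours, and Dnajb1 and Hspb1 take the same colour as that row in replicates 2 and 3 of GM and of PIO at 6 h.

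Deviations from the group means were correlated between members over the 24 libraries, in 36 pairs of genes with the Hspa1 pair taken as its sum. Permutation tests shuffled libraries within groups with 100000 resamples, two-sided, and 4 pairs passed after adjustment over the 36. The shuffles took no account of replicate numbers, and since equally numbered libraries at 24 h tended to deviate together, as for the Hspa1 pair in replicate 2, these p-values may be too small. The Hspa1 pair went with Dnajb1 (Pearson's r = 0.73, permutation p = 0.00037, adjusted 0.0122, and Spearman's rho = 0.73, permutation p = 0.00232, adjusted 0.0304). It also went with Hspb1 (r = 0.72, permutation p = 0.00385, adjusted 0.0347, and rho = 0.71, permutation p = 0.00449, adjusted 0.0404). Without the 2 libraries farthest from the median of the Hspa1 pair, r was 0.66 with Dnajb1 and 0.67 with Hspb1. At 6 h alone r was 0.79 and 0.77, and at 24 h alone 0.83 and 0.66.

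Hspd1 went with Hspe1 (r = 0.79, permutation p = 0.00068, adjusted 0.0122, and rho = 0.75, permutation p = 0.00100, adjusted 0.0304). That r was 0.69 without the 2 farthest libraries, 0.77 at 6 h and 0.90 at 24 h, and the part of the 96 bases that both genes cover was not tested. Hspa8 went with Hsph1 (r = 0.52, permutation p = 0.00243, adjusted 0.0292, and rho = 0.68, permutation p = 0.00253, adjusted 0.0304), with r = 0.53 without the 2 farthest libraries, 0.44 at 6 h and 0.83 at 24 h. Hsp90aa1 and Hspe1 had an equally large r of 0.79 that did not pass (permutation p = 0.00727, adjusted 0.0523, and rho = 0.69, permutation p = 0.00822, adjusted 0.0592). It was 0.96 at 6 h, 0.29 at 24 h and 0.64 without the 3 libraries of steep GC slope. Leaving out these 3 libraries changed r little for the 4 pairs that passed, which then had 0.73, 0.68, 0.75 and 0.56. The other 21 libraries still differed in GC slope, from -0.06 to 0.30, so this omission cannot decide the part of GC content. Correlations of values with the GC trend removed were not computed, and that part was not tested. All libraries share their normalization, and r over the 36 pairs ranged from -0.69 to 0.79 with a median of 0.04.

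Among all other genes tested, those whose log2 CPM over the 24 libraries were most like the sum of Hspa1a and Hspa1b were Hspa1l (r = 0.92), Rbm14 (0.78), Mogs (0.77), Cpne1 (0.76) and Tex261 (0.75), given as a description. Hspa1l is an Hsp70 gene that starts next to Hspa1a on the other strand and shares part of its 76-base windows with the pair, so its reads cannot be kept apart with certainty. Most like the mean of Hspd1 and Hspe1 were Cct6a, Cct8, Eif4a1, Abce1 and Wdr36, each with r = 0.99, which includes the common difference between times. Within groups their r was 0.89 to 0.91.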

How the data were processed

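The 10 genes and the lists of pathway and marker genes were chosen with earlier results of these data known. The authors prepared stranded total RNA libraries, mapped single reads with RNA-STAR to the mouse genome (mm10 in the submitters' processing notes) and counted, with qCount of QuasR, the reads starting in any RefSeq exon of a gene. The counts were deposited as raw whole numbers, and 1 further deposited column, another kind of value, gives each gene's length in base pairs. Strand use and reads with several matches are not stated, and runs of 2 flow cells appear to have been pooled. A symbol was found for 24381 of 24454 identifiers.

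The edgeR package (4.0.16, in R 4.3.3) fitted 1 quasi-likelihood model to all 24 libraries, with a mean for each of 8 groups, after filterByExpr and TMM scaling (factors of 0.96 to 1.04). The 16317 genes tested had a common biological coefficient of variation of 0.225. F-test p-values took the Benjamini-Hochberg adjustment across this whole table, and calls were made under 0.05. Log2 CPM used a prior count of 2. Averaged effects weight the groups equally. Intervals are 95% confidence intervals from the fit, and the SE derives from its F statistic. Named besides the 10 were Hsf1, up to 4 called pathway genes in each direction by smallest p for the averaged effects, and the 5 genes most correlated with the Hspa1 pair and with Hspd1 and Hspe1. Pathway genes of single treatments are given as counts. PIO was not compared with GM.

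Alternatives were DESeq2 1.42.0 (Wald test), RLE size factors, no TMM factors, a likelihood ratio test and other filters. Further ones were the 6 libraries of a comparison alone and the replicate number as a block. A GC trend, fitted as a smoothing spline, was also removed from each library. A GC value existed for 87.2% of identifiers, and genes without one were left unadjusted. Last, each library was left out in turn, and, added after the data were seen, 3 libraries together. Procedures were tested on simulated data. Correlations and figures used Python 3.11.15 with numpy 2.4.6, pandas 2.3.3 and matplotlib 3.10.9. Gene spans are those of RefSeq on GRCm38, and transcripts those of GENCODE on the same build.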

Additional observations from a re-analysis of the deposited data

How the results depend on the processing

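The number of heat shock genes called lower at 24 h on average was 10 (30.7% of all genes), and 9 with the replicate block or without a filter (31.2% and 25.5%), where Hspa1a did not pass (adjusted p = 0.0542 and 0.0526 by edgeR). With 1 library left out it was 8 to 10 (28.8% to 31.1% of all genes), in CTRL alone 4 to 6 (8% to 12.3%), in GM 5 to 7 (6.52% to 11%), in PIO 5 to 8 (8.87% to 18.8%) and in PIO + GM 5 to 6 (10.5% to 17%). For pioglitazone on average the count of 3, all higher (10.3% of all genes), became 5 with the replicate block (14%), 6 with the GC trend removed (17.5%) and 7 with both (22.3%), by Hspa1a and Hspa1b in each (adjusted p = 0.0459 and 0.021 by edgeR with the block), Hspe1 wherever the GC trend was removed, and Hspa8 with both, and was 3 to 4 with 1 library left out (7.25% to 13.9%). For PIO against CTRL at 6 h it rose from 0 to 1 with the GC trend removed, with that and the replicate block, or without the 3 libraries of steep GC slope, in each case by Dnajb1, while the share of all genes called rose from 0.337% to 1.52%, 5.77% and 1.07%. For PIO + GM against GM at 6 h it rose from 0 to 1 by the likelihood ratio test, with a minimum of 10 counts in every library, or with the GC trend removed and the replicate block, and to 2, Hsph1 and Hsp90aa1, with the block alone (adjusted p = 0.0235 and 0.024 by edgeR) or by DESeq2. The share of all genes called rose there from 1.32% to 4.11%, 2.58%, 4%, 12.2% and 9.22% in that order. Leaving out 1 library gave 0 to 2 there, with 2, Hsph1 and Hsp90aa1, without replicate 1 of PIO + GM, where 24.4% of all genes were called, against 0.0241% to 0.211% in the other such fits. For PIO + GM against CTRL at 6 h the count of 0 became 1 with the block (Hsph1, adjusted p = 0.0423 by edgeR), with the block and the GC trend removed (Dnajb1), or by DESeq2 (Hsph1), while the share of all genes went from 2.64% to 9.46%, 4.99% and 8.69%, and 0 to 2 with 1 library left out, with 2 without replicate 1 of PIO + GM (21.5%) and 1 without replicate 2 of CTRL (2.36%). For PIO against CTRL at 24 h it became 1 with the GC trend removed and the block (0.153% of all genes, then 6.85%). In the other comparisons the counts stayed at 0 under each alternative run. Of single values at 6 h, Hspa1a and Hspa1b for PIO against CTRL ran from 0 to 1.17 and from 0.1 to 1.19 on the log2 scale with 1 library left out, and for PIO + GM against GM from -0.29 to 1.13 and from -0.14 to 1.1. In the former the value of 0 for Hspa1a came without replicate 3 of PIO. In the latter the sign turned for both without replicate 1 of PIO + GM and for Hspa1a also without replicate 2 of GM (-0.06). At 24 h, Hspa1a and Hspa1b for PIO + GM against GM ran from 0.34 to 1.25 and from 0.58 to 1.51, and Hspa1b for PIO against CTRL from 0.96 to 1.77. Beyond the settings named, the cause of these changes was not tested. Another scaling moved the median of all genes by at most 0.04 in size. Removal of the GC trend moved it by at most 0.09, for PIO against CTRL at 24 h. Deviations from the group means were correlated between equally numbered libraries at 24 h (mean r 0.38, -0.02 to 0.72 over 18 pairs, beside -0.18 for other pairs) and less so at 6 h (0.11, -0.31 to 0.68, beside -0.05), with 15 and 9 of 18 pairs over 0.1. At each time 8 of 12 libraries correlated best with their own number in the other groups. Since r did not exceed 0.1 in every pair and the labels do not say what a number stands for, the fit without the block was kept, and whether libraries of 1 number shared a preparation was not tested.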
